A study of Homo sapiens with 12 samples.

Results

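The dose step from 100 to 250 nM doxorubicin was compared in IMR90 cells grown on conventional plastic, with 3 libraries at each dose, 6 of the 12 libraries of the study. IMR90, a widely used line of normal human fibroblasts from fetal lung, was labelled wild type. All cells of both groups received doxorubicin for 24 h and were then kept for at least 8 days so that senescence could develop, so the comparison is between 2 exposed groups, and no untreated library was analysed here. The other 6 libraries came from the same 2 doses on a substrate labelled as 2 kPa hydrogel (the growth protocol names PDMS-coated plates) and were used to estimate the spread and to set beside the plastic change. Doses are written in nM as in the sample titles, although the protocol text has µM beside these numbers. All 250 nM files, and none of the 100 nM files, have UMI in their names, the usual abbreviation of unique molecular identifier, and the 250 nM libraries are called UMI-named here. Dose and library preparation therefore cannot be told apart, and each dose difference given here is a difference between these 2 sets of libraries. The members of the comparison were all genes: 12329 of 61541 gene identifiers passed the filter on low counts and were tested.

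Doxorubicin is an anthracycline that traps topoisomerase II on DNA and leaves double-strand breaks. Fibroblasts that survive the damage stop dividing: p53 induces the cyclin-dependent kinase inhibitor p21, and the retinoblastoma proteins silence E2F targets. The DREAM complex represses genes of the late cell cycle through the CHR elements of their promoters. Senescent fibroblasts are further known for loss of lamin B1, a larger lysosomal compartment, and a secretory programme of cytokines, proteases and growth factors called the SASP.

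The 6 plastic libraries differed most in depth. Totals of expected counts ran from 6157947 to 6661327 at 100 nM and from 2229069 to 2730309 at 250 nM. Ribosomal DNA loci took 14.3 to 26.5% of the counts at 100 nM, lowest in replicate 1, and 24.2 to 26.5% at 250 nM. Markers fitted the label of fibroblasts: 14 of 15 fibroblast markers were tested, against 4 of 14 epithelial, 1 of 12 endothelial and 0 of 14 leukocyte markers, and 8 leukocyte markers were at 0 in all 6 plastic libraries. The 14 tested fibroblast markers had a median log2 change of -0.55 in the UMI-named 250 nM libraries, with 11 negative and 3 positive. Of them 2 were called lower and 1 higher (14.3% and 7.14%, against 4.48% and 4.04% of all tested genes). Of the 10 markers of pericytes and smooth muscle, 5 passed the filter and 0 were called, while in 4 of those 5 the 250 nM libraries lay above the 100 nM libraries, as in 16.4% of all tested genes. Replicate 1 of gel at 250 nM stood apart from its group and entered the plastic comparison through the filter on low counts and the shared estimate of spread.

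On plastic, 1050 of 12329 genes were called at an adjusted p under 0.05 (edgeR quasi-likelihood test with Benjamini-Hochberg adjustment), 498 higher and 552 lower at 250 nM, which is 8.52% of the genes tested (4.04% higher and 4.48% lower). The median log2 change over all tested genes was -0.03. The libraries of the 2 doses did not overlap in 1046 of the 1050 called genes and in 35.8% of all tested genes (higher at 250 nM in 16.4%, lower in 19.3%). The calls leaned on single libraries: 95 and 102 genes (0.688% and 0.737% of those tested) were called without replicate 2 and without replicate 3 of the 250 nM group, and 841 (6.13%) without replicate 1. Without replicates 1, 2 and 3 of the 100 nM group the counts were 625 (5.4%), 480 (4.12%) and 685 (5.9%). List counts given below with 1 of these libraries left out are to be read beside these shares, which cover both directions. The count also moved with the other libraries of the series, through which the genes passing the filter, the shared spread and its degrees of freedom all changed, to 2202 (16.1%) without replicate 1 of gel at 250 nM and to 1655 with the 6 plastic libraries fitted alone. Of the 100 called genes that the naming rule chose, 83 were still called without replicate 1 at 250 nM, 15 without replicate 2 and 18 without replicate 3.

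The most extreme differences were found at loci of uncertain identity, and the largest rises and falls were read with that limit. Levels are given as CPM, counts divided by the library size that edgeR scales with TMM factors. AL135905.2, which overlaps the phosphatase gene PTP4A1 on the same strand, stood at 29.9, 41.4 and 34.0 CPM at 100 nM and 0, 0 and 0 at 250 nM, at least 82.98-fold lower against the 3 counts that a total of 0 over the group allows. With any 1 plastic library left out AL135905.2 was not called (adjusted p from 0.0702 to 0.143). PTP4A1 itself was 2.08-fold higher (adjusted p = 0.0217). AC120057.2, AC010132.3 and MSANTD3-TMEFF1, which also fell, overlap other genes on their own strand. CLVS1, called higher, stood at 0.133, 0.465 and 0.633 CPM at 100 nM and 17.0, 49.8 and 35.7 at 250 nM, but it overlaps ASPH on the opposite strand, and the strand setting of the counting is not given in the sources used here. F8A3 has near-identical copies on the X chromosome. Of the 24 protein-coding genes with the largest change, 16 overlapped another annotated gene and 10 another tested gene.

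Among the genes of large rise with steadier support were DND1, DEDD2, GDE1, SWI5 and MAN2B2, which were called in all 29 other settings run. GDE1 (ENSG00000006007, chromosome 16, 19501689 to 19522145, GENCODE 29, GRCh38), a glycerophosphodiester phosphodiesterase, stood at 39.8, 58.4 and 52.4 CPM at 100 nM and 156, 209.8 and 179 at 250 nM. All 3 libraries at 250 nM lay above all 3 at 100 nM, and GDE1 was 3.62-fold higher (adjusted p = 0.000834). Its antisense neighbour AC130456.5, which overlaps it, fell by 1.10 on the log2 scale (adjusted p = 0.00975), and reads of the 2 cannot be told apart without strand. DEDD2, a gene of a death effector domain protein, stood at 4.27, 7.59 and 8.39 CPM at 100 nM and 28.1, 25.8 and 23.2 at 250 nM and was 3.81-fold higher (adjusted p = 0.00488). MAN2B2, a mannosidase gene, stood at 16.8, 17.3 and 18.7 CPM at 100 nM and 40.6, 77.5 and 60.5 at 250 nM and was 3.37-fold higher (adjusted p = 0.00384). SWI5, a gene of homologous recombination that overlaps GOLGA2 on the opposite strand, was 3.44-fold higher (adjusted p = 0.00273). DND1, an RNA-binding protein gene that overlaps WDR55 on the opposite strand, was 4.203-fold higher (adjusted p = 0.00469). The limit of unknown strand holds for both. These 5 genes were also higher at 250 nM on gel, by 1.39 to 2.29 on the log2 scale, in libraries that carry the same split of library preparation.

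**Figure D1:**
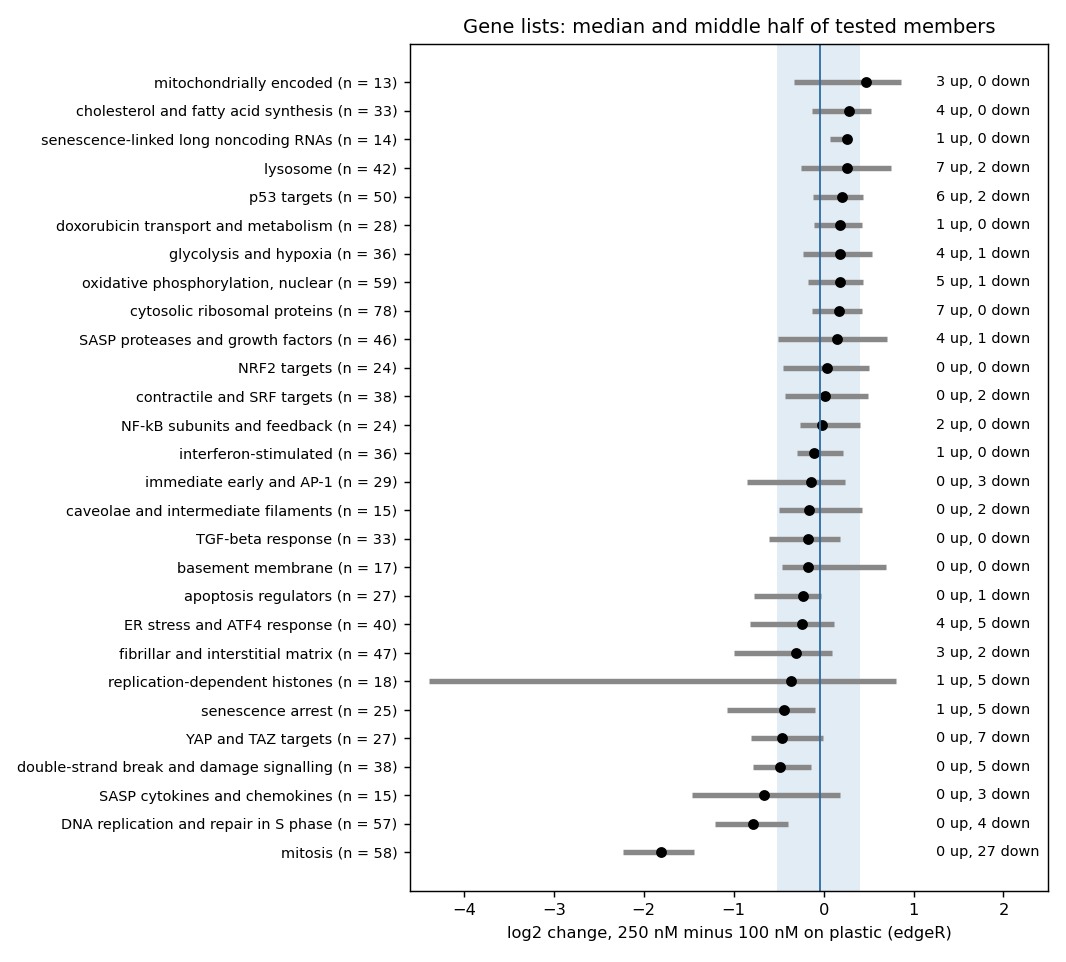
Median (points) and interquartile range (bars) of the log2 change from 100 to 250 nM on plastic for the tested members of each gene list, with the number called in each direction at right; the blue line and band give the median, -0.03, and interquartile range of all 12329 tested genes. The mitosis list lies apart from the band with a median of -1.81 and 27 members lower, while most other medians lie inside it.

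Mitotic genes were lower in the UMI-named 250 nM libraries. Of 58 tested genes of the mitosis list 27 fell and 0 rose, 46.6% of the list where 4.48% of all tested genes fell, and 57 of 58 had a negative change. The median log2 change was -1.81, and in 46 of 58 the 250 nM libraries lay below all 100 nM libraries, as in 19.3% of all tested genes. The exception was BUB3, a checkpoint gene, at 0.19 (adjusted p = 0.663). Summed over the list, the 100 nM libraries held 2113, 3094 and 3413 CPM and the 250 nM libraries 1623, 835 and 694. Replicate 1 at 250 nM was thus nearest to the 100 nM group.

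By gene, again in the UMI-named libraries against the others, KIF20A, a kinesin of the central spindle, stood at 17.7, 21.8 and 24.7 CPM at 100 nM and 4.55, 2.35 and 1.57 at 250 nM and was 7.53-fold lower (adjusted p = 0.00509). CKS2, a subunit of the cyclin-dependent kinase complexes, stood at 67.8, 66.3 and 46.1 CPM at 100 nM and 24.4, 18.3 and 19.2 at 250 nM and was 2.90-fold lower (adjusted p = 0.00509). Both were called in all 29 other settings, and neither group overlapped the other. ANLN, the anillin gene of the contractile ring, stood at 67.9, 113 and 118 CPM at 100 nM and 31.9, 11.3 and 8.64 at 250 nM and was 5.76-fold lower (adjusted p = 0.00938), or 10.1-fold (adjusted p = 0.00497) without replicate 1 at 250 nM. KIF18A, a kinesin that positions chromosomes, stood at 12.8, 28.2 and 25.5 CPM at 100 nM and 5.38, 4.69 and 2.36 at 250 nM and was 5.35-fold lower (adjusted p = 0.00906). CEP55, the abscission factor, stood at 20.95, 34.8 and 39.4 CPM at 100 nM and 5.79, 1.88 and 1.57 at 250 nM and was 10.2-fold lower (adjusted p = 0.0102), or 18.4-fold (adjusted p = 0.0115) without replicate 1 at 250 nM. In all 5 genes replicate 1 was the highest of the 250 nM libraries.

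Further members lower in the UMI-named libraries were the cyclin genes CCNB1 (4.35-fold lower) and CCNB2, the Aurora kinase gene AURKB (5.002-fold lower), the checkpoint genes TTK (7.74-fold lower), BUB1B and MAD2L1, the kinetochore genes CENPE and NUF2, and the condensin subunits SMC4 and NCAPH. MKI67, the proliferation marker, stood at 44.6, 51.3 and 120.0 CPM at 100 nM and 40.1, 9.86 and 10.2 at 250 nM and was not called (adjusted p = 0.072). TOP2A, the main target of doxorubicin in dividing cells, stood at 252, 340.3 and 316 CPM at 100 nM and 182, 75.1 and 49.9 at 250 nM and was not called either (adjusted p = 0.0644). In both genes the libraries of the 2 doses did not overlap. Without replicate 1 at 250 nM both were called, MKI67 7.19-fold (adjusted p = 0.0229) and TOP2A 4.89-fold (adjusted p = 0.0213) lower. TOP2B, the isoform of non-dividing cells, stood at 116 ± 25.4 CPM at 100 nM and 70.4 ± 7.84 at 250 nM (mean ± SD of 3 libraries each) and was not called (adjusted p = 0.078).

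The count of the mitosis list depended on which libraries were in the fit. Without replicate 1 at 250 nM 45 of 59 members fell, where 6.13% of all tested genes were called in either direction. Without replicate 2 or replicate 3, 2 of 59 fell in each case, where 0.688% and 0.737% of all genes were called in either direction. The medians of the list in these 2 fits were -1.57 and -1.49. Without replicates 1, 2 and 3 at 100 nM 19, 7 and 9 fell, beside 5.4%, 4.12% and 5.9% of all genes called. Without replicate 1 of gel at 250 nM 42 fell, beside 16.1% of all genes called. The median stayed between -2.68 and -1.49 over the settings run. The list's transcripts had a median GC content of 42.8%, and with the GC content trend removed 23 members fell with a median of -1.62. In bulk RNA, fewer dividing cells and less RNA of these genes per cell cannot be told apart, nor can dose and library preparation.

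**Figure D2:**
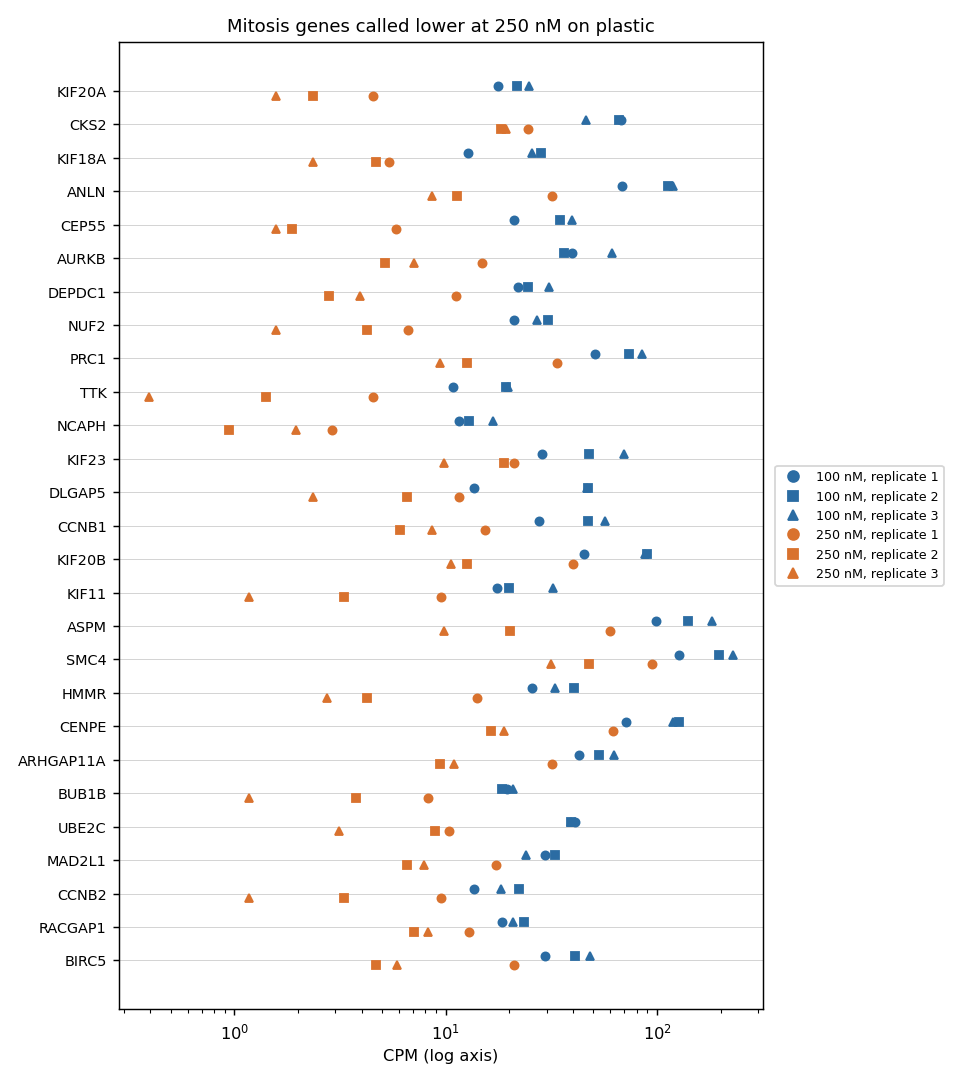
CPM (log axis) of the 27 mitosis genes called lower at 250 nM, with 1 symbol for each plastic library. All 3 libraries at 250 nM lie below those at 100 nM in each gene, and replicate 1 at 250 nM (circles) is the highest of its group in all 27; in KIF20A it stands at 4.55 CPM against 2.35 and 1.57.

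The promoters of 4 of these genes, the mitosis genes of smallest adjusted p, are shown for 2 elements. These are the CHR, through which DREAM is known to act, and the CCAAT box, which is not counted here as a DREAM element. By the exact letters searched, CKS2 and KIF18A held both, ANLN held the CHR alone and KIF20A the CCAAT box alone. Variant spellings of the elements were not searched. The 250 bases before the RefSeq start (GRCh38.p14) are printed on the gene's strand, with capitals marking the CHR core, TTTGAA, and the CCAAT box, CCAAT, on either strand.
KIF20A (chr5:138178862-138179111, plus strand): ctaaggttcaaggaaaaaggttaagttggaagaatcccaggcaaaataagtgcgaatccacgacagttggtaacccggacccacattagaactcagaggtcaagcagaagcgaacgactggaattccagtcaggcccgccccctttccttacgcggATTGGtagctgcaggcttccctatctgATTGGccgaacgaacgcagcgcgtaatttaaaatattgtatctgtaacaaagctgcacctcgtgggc
CKS2 (chr9:89310945-89311194, plus strand): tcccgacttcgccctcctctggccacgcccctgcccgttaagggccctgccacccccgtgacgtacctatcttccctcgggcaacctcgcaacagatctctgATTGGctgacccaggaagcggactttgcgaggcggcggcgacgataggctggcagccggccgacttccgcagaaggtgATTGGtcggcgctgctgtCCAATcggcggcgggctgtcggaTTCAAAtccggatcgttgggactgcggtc
KIF18A (chr11:28108157-28108406, minus strand): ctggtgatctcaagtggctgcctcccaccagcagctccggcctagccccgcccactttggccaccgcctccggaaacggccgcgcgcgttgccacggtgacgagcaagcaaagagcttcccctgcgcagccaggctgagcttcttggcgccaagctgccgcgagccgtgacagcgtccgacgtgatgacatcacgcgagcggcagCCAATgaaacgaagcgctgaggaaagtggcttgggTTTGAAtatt
ANLN (chr7:36389612-36389861, plus strand): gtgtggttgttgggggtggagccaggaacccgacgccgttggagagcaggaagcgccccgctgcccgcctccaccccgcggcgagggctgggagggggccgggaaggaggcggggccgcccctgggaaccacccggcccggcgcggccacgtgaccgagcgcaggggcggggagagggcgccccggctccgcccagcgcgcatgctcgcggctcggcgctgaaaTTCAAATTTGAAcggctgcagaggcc
KIF20A held 2 CCAAT boxes, 67 and 94 bases before the start, and 0 matches to the CHR letters. CKS2 held 3 CCAAT boxes and 1 CHR match, 29 bases before the start. KIF18A held 1 of each, and ANLN held 2 CHR matches on opposite strands next to each other, 20 and 26 bases before the start, and 0 CCAAT boxes. Of 50 mitosis promoters found in RefSeq, 27 held the CHR letters (54%) and 38 the CCAAT letters (76%), against 8.51% and 35.5% of 9323 promoters of tested genes. Both were present in 46% of mitosis promoters and 3.58% of those of tested genes. These shares belong to the chosen list and do not depend on the libraries. Of 23 promoters of mitosis genes called lower, 60.9% held the CHR letters and 73.9% the CCAAT letters. These 23 are among the 416 promoters that follow. Of 416 promoters of genes called lower on plastic, 11.8% held the CHR letters, 39.2% the CCAAT letters and 3.61% the E2F letters GGCGGGAA. Of 384 promoters of genes called higher the shares were 5.99%, 38.8% and 3.65%. A match to these letters is a description of the sequence, and binding was not measured.

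Genes of DNA replication and of S phase repair were compared in the same way between the UMI-named and the other libraries. Of 57 tested members 4 fell and 0 rose (7.02%, against 4.48% of all tested genes), at a median of -0.79 on the log2 scale and with 49 of 57 negative. PCNA, the sliding clamp of the polymerases, stood at 80.6, 96.0 and 75.5 CPM at 100 nM and 58.4, 43.7 and 48.3 at 250 nM and was 1.68-fold lower (adjusted p = 0.0351). MCM2, a helicase subunit, was 5.41-fold lower (adjusted p = 0.0234), ORC6, of the origin recognition complex, 2.69-fold lower (adjusted p = 0.0322), and BRCA2, of homologous recombination, 4.22-fold lower (adjusted p = 0.0343), or 7.01-fold (adjusted p = 0.0252) without replicate 1 at 250 nM. Without replicate 2 or 3 at 250 nM 0 members were called, where 0.688% and 0.737% of all genes were called. Without replicate 1 there were 7, where 6.13% of all genes were called. In this list 1 of 50 promoters held the CHR letters (2%), while 11 (22%) held the E2F letters, present in 4.71% of promoters of tested genes.

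Replication-dependent histone genes, which are made in S phase, are largely not polyadenylated, and the labels describe polyadenylated RNA, and the part of that selection in the values below was not tested apart from dose. Of 55 such genes 18 were tested, 5 fell and 1 rose (27.8% and 5.56% of those tested, against 4.48% and 4.04%). H4C3 stood at 239, 487 and 512 CPM at 100 nM and 84.4, 24.4 and 19.6 at 250 nM and was 9.61-fold lower (adjusted p = 0.00509), called in all 29 other settings, and 18.9-fold (adjusted p = 0.00273) lower without replicate 1 at 250 nM. The linker histone gene H1-4 had counts in each 100 nM library and 0 in each 250 nM library, at least 12.7-fold lower against the 3 counts that a total of 0 allows. H1-3, H1-2 and H2AC14 also fell and H2BC21 rose 2.69-fold (adjusted p = 0.045). H1-3 stood at 4.14, 14.7 and 11.9 CPM at 100 nM and 0.828, 0 and 0 at 250 nM, too few counts at 250 nM for a firm fold. These genes have near-identical paralogs, between which the counting could split reads. There was 1 call without replicate 2 or 3 at 250 nM.

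In the list of senescence arrest genes, which also holds nuclear markers and a D-type cyclin, 5 of 25 fell and 1 rose in the UMI-named libraries. That is 24% called, against 8.52% of all tested genes, with a median log2 change of -0.44. LMNB1 (ENSG00000113368, chromosome 5, 126776623 to 126837020), the gene of lamin B1, stood at 78.3, 37.3 and 45.8 CPM at 100 nM and 9.93, 3.29 and 1.18 at 250 nM. Its 2 groups did not overlap, and it was 11.2-fold lower (adjusted p = 0.0109), or 24.8-fold (adjusted p = 0.009) lower without replicate 1 at 250 nM. HMGB2, a chromatin protein gene that senescent cells are known to lose, stood at 58.3, 38.3 and 34.7 CPM at 100 nM and 16.1, 11.3 and 7.07 at 250 nM and was 3.81-fold lower (adjusted p = 0.0114). RB1 (ENSG00000139687, chromosome 13, 48303726 to 48599436), the retinoblastoma gene itself, stood at 56.4, 46.5 and 37.8 CPM at 100 nM and 17.4, 15.0 and 9.03 at 250 nM and was 3.40-fold lower (adjusted p = 0.00509). RB1 was the single member still called without replicate 2 and without replicate 3 at 250 nM. Its relative RBL1 and the chromatin gene HMGB1 fell as well, and CCND2, a D-type cyclin, was 1.90-fold higher (adjusted p = 0.0322).

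The inhibitors that enforce the arrest did not pass the test between the UMI-named and the other libraries. CDKN1A, which encodes p21, stood at 597, 493 and 421 CPM at 100 nM and 797, 543 and 625 at 250 nM, and the groups overlapped (1.30-fold higher, adjusted p = 0.301). CDKN2A, which encodes p16, stood at 67.1, 47.2 and 10.9 CPM at 100 nM and 6.21, 31.9 and 40.4 at 250 nM (adjusted p = 0.619). CDKN2B, which encodes p15, stood at 7.19 ± 2.13 CPM at 100 nM and 9.91 ± 3.20 at 250 nM (mean ± SD of 3 libraries each) (adjusted p = 0.487). Both doses thus held all 3 transcripts, and the values of CDKN1A and CDKN2A overlapped. GLB1, whose product is the senescence-associated beta-galactosidase, stood at 60.6, 40.1 and 37.4 CPM at 100 nM and 60.0, 71.8 and 66.8 at 250 nM (adjusted p = 0.119).

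**Figure D3:**
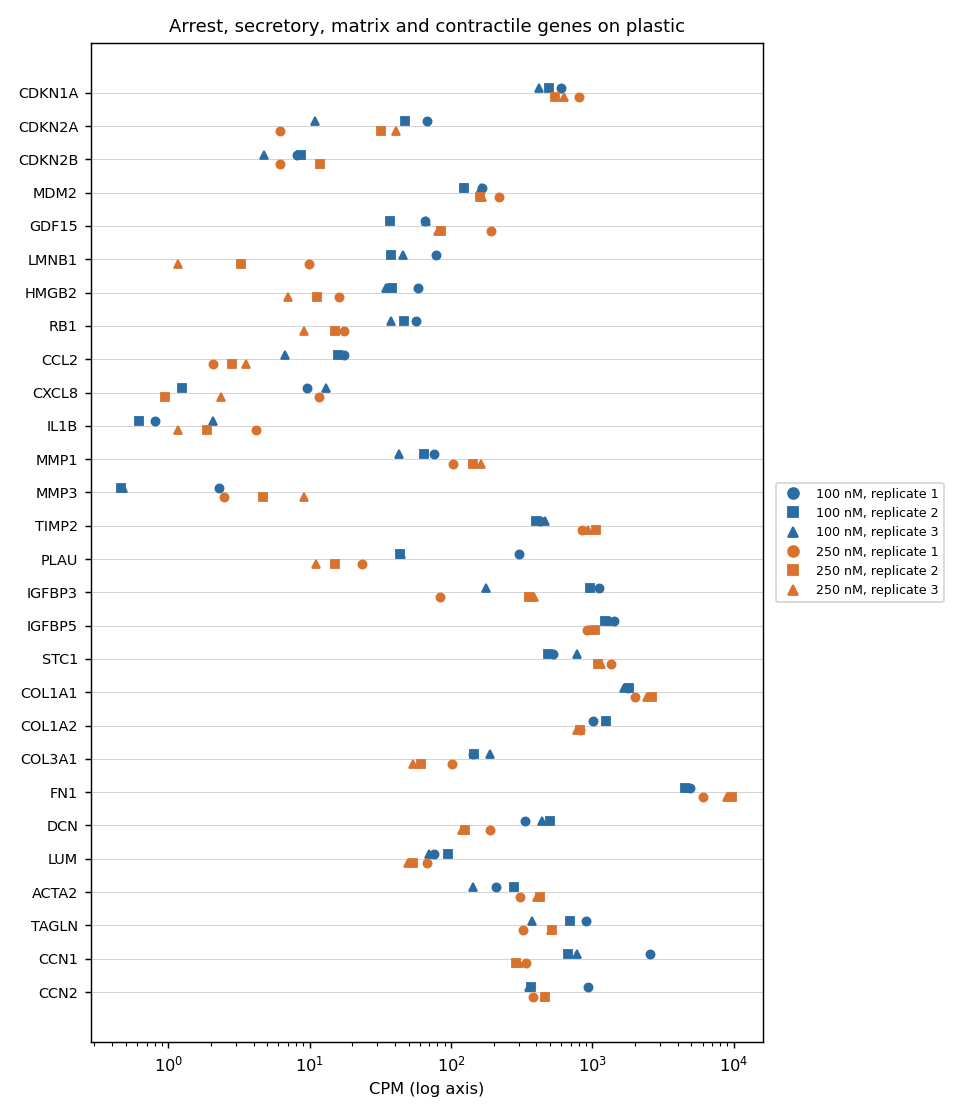
CPM (log axis) of genes of the arrest and its nuclear markers, the secretory programme, the matrix and contraction, with 1 symbol for each plastic library (blue 100 nM, orange 250 nM). LMNB1, HMGB2, RB1, CCL2 and DCN lie lower and MMP1, TIMP2, STC1 and FN1 higher at 250 nM without overlap, while CDKN1A, MDM2 and CXCL8 overlap.

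Targets of p53 were divided in the UMI-named against the other libraries. Of 50 tested members 6 rose and 2 fell (12% and 4%, against 4.04% and 4.48% of all tested genes), with a median log2 change of 0.21. TP53INP1, a stress-induced cofactor of p53, stood at 27.4, 20.4 and 19.5 CPM at 100 nM and 55.9, 46.9 and 57.7 at 250 nM and was 2.38-fold higher (adjusted p = 0.00509), called in all 29 other settings. AEN, an apoptosis-enhancing nuclease gene, stood at 26.3, 31.7 and 40.4 CPM at 100 nM and 67.9, 63.4 and 60.1 at 250 nM and was 1.94-fold higher (adjusted p = 0.0185). TP53I3, PTP4A1, TRIAP1 and XPC, the last a damage sensor of nucleotide excision repair, also rose, by 1.75 to 2.27-fold. PLK2, a kinase gene, stood at 60.3, 73.1 and 78.1 CPM at 100 nM and 42.2, 30.5 and 31.0 at 250 nM and was 2.04-fold lower (adjusted p = 0.0108). PHPT1, a phosphatase gene at an overlapping locus, was 4.01-fold lower on plastic (adjusted p = 0.0147), a log2 change of -2.00, against 0.45 on gel.

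Other p53 targets did not pass, with library preparation again not separable from dose. MDM2, the ligase that limits p53, stood at 166, 124 and 162 CPM at 100 nM and 217, 161 and 166 at 250 nM and was not called (adjusted p = 0.578). GDF15, a secreted p53 target, stood at 65.8, 36.9 and 66.5 CPM at 100 nM and 192, 84.5 and 80.1 at 250 nM. Its groups did not overlap, but replicate 1 at 250 nM held the highest value, and the change was not called (2.11-fold higher, adjusted p = 0.251). BAX, of the apoptotic pore, was at 37.1 CPM in replicate 1 at 100 nM and at 1.57 to 2.82 in the other 5 libraries (adjusted p = 0.192). Without replicate 2 or 3 at 250 nM 1 p53 target was called in each case, where 0.688% and 0.737% of all genes were called.

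Genes of break repair and damage signalling had a median log2 change of -0.49, with 5 of 38 lower and 0 higher in the UMI-named libraries (13.2%, against 4.48%). PRKDC, the catalytic subunit of the DNA-dependent kinase of end joining, stood at 104, 96.0 and 142 CPM at 100 nM and 23.6, 26.8 and 31.0 at 250 nM and was 4.199-fold lower (adjusted p = 0.0232). TDP2, which removes trapped topoisomerase II from DNA ends, stood at 17.9, 16.4 and 14.6 CPM at 100 nM and 7.86, 9.39 and 5.89 at 250 nM and was 2.12-fold lower (adjusted p = 0.0336). UIMC1 and PALB2, of the BRCA1 and BRCA2 complexes, and the deubiquitinase gene USP1 fell as well. With the GC content trend removed 3 members fell and the median was -0.27, TDP2 and USP1 being no longer called (adjusted p = 0.0543 and 0.0645); 9.64% of all genes were called in that fit, 5.6% higher and 4.03% lower. Without replicate 2 or 3 at 250 nM 0 were called, where 0.688% and 0.737% of all genes were called. CASP8, the initiator caspase, was the 1 called of 27 apoptosis regulators, 3.70% of that list against 8.52% of all tested genes. It was 7.56-fold lower (adjusted p = 0.0266), or 4.92-fold (adjusted p = 0.0904) lower without replicate 1 at 100 nM.

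Genes that move or metabolise doxorubicin had 1 call in 28 between the library sets (3.57%, against 8.52%), AKR1A1, an aldo-keto reductase that reduces anthracyclines. It stood at 38.2, 46.2 and 44.0 CPM at 100 nM and 84.4, 107 and 95.04 at 250 nM and was 2.24-fold higher (adjusted p = 0.00756). ABCB1, the drug efflux pump, was under the filter, with 9, 10 and 21 counts at 100 nM and 6, 1 and 4 counts at 250 nM, and no difference was detectable at this depth (adjusted p = 0.936 with no filter).

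Few cytokine genes of the SASP had enough counts to be tested between the UMI-named and the other libraries. Of 35 cytokine and chemokine genes 15 were tested, 3 fell (20% of those tested, against 4.48% of all tested genes) and 0 rose, with a median log2 change of -0.66. CCL2 (ENSG00000108691, chromosome 17, 34255218 to 34257203), the monocyte chemokine, stood at 17.5, 15.8 and 6.65 CPM at 100 nM and 2.07, 2.82 and 3.53 at 250 nM and was 4.70-fold lower (adjusted p = 0.0109). CSF1, the macrophage growth factor, stood at 8.94, 6.81 and 6.81 CPM at 100 nM and 1.66, 1.41 and 1.96 at 250 nM and was 4.41-fold lower (adjusted p = 0.045). IL32 was 2.47-fold lower (adjusted p = 0.0472). With any 1 plastic library left out CSF1 was not called (adjusted p from 0.0746 to 0.173). Among those fits IL32 was called only without replicate 1 at 100 nM (adjusted p = 0.0299). The hallmark cytokines were near the floor of counting at both doses. IL6 had 14, 10 and 14 counts at 100 nM and 1, 0 and 2 at 250 nM, IL1A at most 6, and neither was tested. With no filter their adjusted p was 0.277 and 0.8. CXCL8 stood at 9.61, 1.24 and 13.0 CPM at 100 nM and 11.6, 0.939 and 2.36 at 250 nM (adjusted p = 0.823) and IL1B at 0.801, 0.619 and 2.06 CPM at 100 nM and 4.14, 1.88 and 1.18 at 250 nM (adjusted p = 0.712), with overlapping groups. Without replicate 2 or 3 at 250 nM 0 of the cytokine genes were called, where 0.688% and 0.737% of all genes were called. Without replicate 1 there was 1 call, where 6.13% of all genes were called.

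In the protease and growth factor arm 4 of 46 members rose and 1 fell in the UMI-named libraries (8.70% and 2.17%, against 4.04% and 4.48% of all tested genes), with a median log2 change of 0.14. TIMP2, an inhibitor of matrix metalloproteinases, stood at 423, 395 and 459.6 CPM at 100 nM and 841, 1060.4 and 928 at 250 nM and was 2.21-fold higher (adjusted p = 0.00672). CTSB, the cysteine protease cathepsin B, stood at 426, 342 and 381 CPM at 100 nM and 646, 786 and 744 at 250 nM and was 1.89-fold higher (adjusted p = 0.0162). MMP1, the interstitial collagenase, stood at 75.5, 64.0 and 42.9 CPM at 100 nM and 103, 143 and 163 at 250 nM and was 2.24-fold higher (adjusted p = 0.0263). In each of the 3 genes the lowest 250 nM library exceeded the highest 100 nM library. STC1, a secreted glycoprotein gene, was 2.01-fold higher (adjusted p = 0.0479) and lost its call without replicate 1 at 250 nM (adjusted p = 0.114). PLAU, the urokinase gene, stood at 301, 43.2 and 44.0 CPM at 100 nM and 23.6, 15.0 and 11 at 250 nM and was 7.83-fold lower (adjusted p = 0.0181). Its fold rested on replicate 1 at 100 nM, without which it was 2.62-fold (adjusted p = 0.0429). IGFBP3, IGFBP5 and MMP3 did not pass (adjusted p from 0.0877 to 0.275). IGFBP5 stood at 1418, 1217 and 1324 CPM at 100 nM and 910.0, 1045 and 949 at 250 nM, lower without overlap. Without replicate 2 and without replicate 3 at 250 nM 0 and 1 genes of this list were called, where 0.688% and 0.737% of all genes were called.

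Matrix genes had a median log2 change of -0.31 in the UMI-named libraries, with 3 of 47 higher and 2 lower (6.38% and 4.26%, close to the 4.04% and 4.48% of all tested genes). FN1, the fibronectin gene, stood at 4907, 4518 and 4708 CPM at 100 nM and 6007, 9719 and 8873 at 250 nM and was 1.74-fold higher (adjusted p = 0.0427). TGFBI, a secreted adhesion protein, stood at 1611, 1245 and 984 CPM at 100 nM and 1832, 3659 and 3417 at 250 nM and was 2.32-fold higher (adjusted p = 0.028), and PLOD1, a collagen lysyl hydroxylase, was 1.82-fold higher (adjusted p = 0.0176). In FN1 and TGFBI replicate 1 was the lowest of the 250 nM libraries. DCN, the proteoglycan decorin, stood at 334, 501 and 437 CPM at 100 nM and 189.5, 125 and 119 at 250 nM and was 2.94-fold lower (adjusted p = 0.0059). HAS2, a hyaluronan synthase, stood at 19.2, 44.3 and 27.1 CPM at 100 nM and 12, 3.76 and 5.11 at 250 nM and was 4.30-fold lower (adjusted p = 0.0128), or 6.78-fold (adjusted p = 0.00864) without replicate 1 at 250 nM.

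The chains of collagen I had log2 changes of opposite sign, and neither was called. COL1A1 stood at 1792, 1804 and 1665 CPM at 100 nM and 1989, 2628 and 2423 at 250 nM (adjusted p = 0.212). COL1A2, the partner chain in the same trimer, stood at 1012, 1239 and 1253 CPM at 100 nM and 817, 820.1 and 777.2 at 250 nM (adjusted p = 0.142). In each gene the 2 library sets did not overlap. COL3A1 stood at 143, 145 and 189 CPM at 100 nM and 102, 61.5 and 53.8 at 250 nM (adjusted p = 0.101) and LUM, the gene of lumican, at 76.1, 94.6 and 70.3 CPM at 100 nM and 67.9, 53.5 and 49.9 at 250 nM (adjusted p = 0.205), both lower without overlap. LUM stood at a log2 change of -0.49 on plastic and 0.96 on gel. No call among the matrix genes was left without replicate 2 or 3 at 250 nM (0 in each case, where 0.688% and 0.737% of all genes were called). Basement membrane genes had 0 calls in 17, where 8.52% of all tested genes were called.

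Of 38 contractile and SRF targets 2 fell in the UMI-named libraries (5.26%, near the 4.48% of all tested genes), and the median was 0.02. ZYX, the focal adhesion gene zyxin, stood at 54.4, 50.2 and 39.3 CPM at 100 nM and 15.7, 12.7 and 14.1 at 250 nM and was 3.37-fold lower (adjusted p = 0.0059), while its log2 change on gel was -0.12. PDLIM7, a cytoskeletal adaptor, was 2.24-fold lower (adjusted p = 0.0243) and was no longer called with the GC content trend removed (adjusted p = 0.0705). ACTA2, the smooth muscle actin of myofibroblasts, stood at 207, 279 and 143 CPM at 100 nM and 305, 426 and 403 at 250 nM, higher without overlap and not called (adjusted p = 0.143). The summed level of the 10 markers of pericytes and smooth muscle ran from 195 to 222 CPM at 100 nM and from 277 up to 318 at 250 nM, with MYH11 and DES under the filter, and its part in the contractile values was not tested. TAGLN overlapped between the doses (adjusted p = 0.352). Without replicate 2 and without replicate 3 at 250 nM 0 and 1 members were called.

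Targets of YAP and TAZ, the transcriptional regulators that respond to mechanical load, had a median of -0.46 with 7 of 27 lower and 0 higher in the UMI-named libraries (25.9%, against 4.48%). AMOTL2, a feedback inhibitor of YAP, stood at 123, 131 and 117 CPM at 100 nM and 68.3, 69.0 and 71.9 at 250 nM and was 1.77-fold lower (adjusted p = 0.0205). MYOF, a membrane repair gene, stood at 216, 213 and 275 CPM at 100 nM and 140.3, 109 and 108 at 250 nM and was 1.97-fold lower (adjusted p = 0.0114). CCN1, a matricellular protein, stood at 2552, 671 and 775 CPM at 100 nM and 339, 288 and 303 at 250 nM and was 4.30-fold lower (adjusted p = 0.0197). Replicate 1 at 100 nM held by far the most CCN1, and without it the gene was 2.32-fold (adjusted p = 0.0719) lower. CCN2 was also highest in that library, at 932 CPM, and was not called (adjusted p = 0.554). Of the changes in the list 20 were negative and 7 positive, the highest in ANKRD1 (log2 change 2.17, not called). The list also holds BIRC5, a mitotic gene. The list had 0 calls without replicate 2 or 3 at 250 nM, where 0.688% and 0.737% of all genes were called. NES and VIM, genes of intermediate filaments, were 1.98-fold lower (adjusted p = 0.0226) and 2.13-fold lower (adjusted p = 0.0332). Of 15 tested genes of caveolae and intermediate filaments 2 fell and 0 rose (13.3% lower, against 4.48%), with 7 positive and 8 negative changes. KRT18, another intermediate filament gene, had the highest log2 change of that list, 1.46, and was not called.

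Early response and inflammatory lists held 1 to 3 calls between the UMI-named and the other libraries, and without replicate 2 or 3 at 250 nM 0 in the 3 lists that follow. Of 29 immediate early and AP-1 genes 3 fell (10.3%, against 4.48%), MYC (5.04-fold lower, adjusted p = 0.0222), KLF10 (2.93-fold lower, adjusted p = 0.00975) and KLF2 (2.33-fold lower, adjusted p = 0.0354). MYC stood at 39.1 CPM in replicate 1 at 100 nM and at 11.5 and 13.1 in the others, and without that replicate it was 2.90-fold (adjusted p = 0.0698) lower. RELA, a subunit of NF-kB, stood at 63.1, 34.7 and 42.9 CPM at 100 nM and 83.2, 91.1 and 86.8 at 250 nM and was 1.85-fold higher (adjusted p = 0.0392). IRAK1, a kinase of interleukin-1 signalling, was 1.86-fold higher (adjusted p = 0.0277). Both lost their call without replicate 1 at 250 nM (adjusted p = 0.0692 and 0.0576), and 2 of 24 NF-kB genes rose in all (8.33%, against 4.04%). Of 36 interferon-stimulated genes 1 rose (2.78%, against 4.04%), HLA-E, a class I molecule, at 83.5, 93.4 and 88.7 CPM at 100 nM and 138, 132 and 165 at 250 nM (adjusted p = 0.0245). TGF-beta response genes and NRF2 targets had 0 calls in 33 and 24, where 8.52% of all tested genes were called.

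In several metabolic lists more members rose than fell in the UMI-named libraries. Of 33 genes of cholesterol and fatty acid synthesis 4 rose and 0 fell (12.1%, against 4.04%), with a median of 0.28. ACAT2, of the first step from acetyl-CoA, stood at 58.7, 57.0 and 70.6 CPM at 100 nM and 136, 159 and 153 at 250 nM and was 2.40-fold higher (adjusted p = 0.00672). SQLE, squalene epoxidase, stood at 42.8, 44.9 and 45.3 CPM at 100 nM and 72.4, 91.1 and 84.8 at 250 nM and was 1.87-fold higher (adjusted p = 0.0102). ACLY, which makes cytosolic acetyl-CoA, was 1.89-fold higher (adjusted p = 0.0234) and FDPS 2.06-fold higher (adjusted p = 0.0319). These 4 genes were also called higher on gel. Without replicate 2 and without replicate 3 at 250 nM 0 and 1 members were called.

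In the glycolysis and hypoxia list 4 of 36 rose and 1 fell in the UMI-named libraries (11.1% and 2.78%, against 4.04% and 4.48%), with a median of 0.18. ADM, the vasodilator peptide adrenomedullin and a hypoxia target, stood at 89.5, 76.7 and 67.0 CPM at 100 nM and 186, 273 and 244 at 250 nM. All 250 nM libraries were at least 186 CPM and all 100 nM libraries at most 89.5, and ADM was 3.01-fold higher (adjusted p = 0.00216), called in all 29 other settings. PGK1, a glycolytic kinase, was 1.89-fold higher (adjusted p = 0.0234), LDHA 2.00-fold higher (adjusted p = 0.0318) and HK1, a hexokinase, 1.82-fold higher (adjusted p = 0.0108). SLC16A3, the lactate exporter, was 1.78-fold lower (adjusted p = 0.0318). There was 1 call without replicate 2 or 3 at 250 nM.

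Lysosomal genes had a median of 0.26 in the UMI-named libraries, with 7 of 42 higher and 2 lower (16.7% and 4.76%, against 4.04% and 4.48%). FUCA1, a fucosidase, stood at 3.34, 7.59 and 2.85 CPM at 100 nM and 15.7, 20.7 and 19.6 at 250 nM and was 4.06-fold higher (adjusted p = 0.015). NEU1, a sialidase, stood at 23.1, 22.5 and 26.6 CPM at 100 nM and 44.7, 39.0 and 45.9 at 250 nM (1.80-fold higher, adjusted p = 0.0224), and ASAH1, acid ceramidase, at 44.4, 44.6 and 45.0 CPM at 100 nM and 65.8, 85.0 and 74.2 at 250 nM (1.68-fold higher, adjusted p = 0.0266). The cholesterol transporter gene NPC1, CTSB and ATP6AP1, of the proton pump, were among the others that rose. CTSC, a cathepsin, and ATP6V1A, a subunit of the same pump, fell (1.95-fold lower and 1.64-fold lower). MCOLN1 had the lowest log2 change of the list, -3.70, and was not called. Without replicate 1 at 250 nM 3 lysosomal genes were called, where 6.13% of all genes were called. Without replicate 2 or 3 there were 0, where 0.688% and 0.737% of all genes were called.

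The endoplasmic reticulum stress list was mixed between the library sets, with 4 of 40 higher and 5 lower (10% and 12.5%, against 4.04% and 4.48%) and a median of -0.25. Of the chaperones, HYOU1 stood at 12.8, 11.6 and 20.6 CPM at 100 nM and 40.6, 46.9 and 45.2 at 250 nM and was 2.95-fold higher (adjusted p = 0.0112). This rise was absent from the deposited TPM, where limma-trend gave a log2 change of -0.21. CALR, the calcium-binding chaperone calreticulin, stood at 337, 417 and 314 CPM at 100 nM and 193, 209.8 and 194 at 250 nM and was 1.79-fold lower (adjusted p = 0.0173), and PDIA4, a disulfide isomerase, 2.73-fold lower (adjusted p = 0.0179). EDEM1, of misfolded protein disposal, stood at 22.0, 15.0 and 19.6 CPM at 100 nM and 5.38, 7.04 and 10.2 at 250 nM and was 2.49-fold lower (adjusted p = 0.0144). ATF4, the transcription factor of the integrated stress response, stood at 44.4, 86.3 and 145 CPM at 100 nM and 244, 207 and 181 at 250 nM and was 2.29-fold higher (adjusted p = 0.0327). Without replicate 2 and without replicate 3 at 250 nM 0 and 1 members were called.

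Mitochondrial transcripts moved unequally. Of 13 messenger RNAs encoded by the mitochondrial genome 3 rose and 0 fell (23.1%, against 4.04%), with a median of 0.47, and 1 rose without replicate 2 or 3 at 250 nM. MT-ATP6, a subunit of ATP synthase, stood at 2591, 1293 and 1733 CPM at 100 nM and 4874, 6181 and 5620.1 at 250 nM and was 2.97-fold higher (adjusted p = 0.00599). MT-ND4 and MT-ND3, subunits of complex I, were 1.92-fold higher (adjusted p = 0.0266) and 2.35-fold higher (adjusted p = 0.0354). The ribosomal RNA MT-RNR2, of the same genome and singled out after its values were seen, stood at 50254, 59329.7 and 59972 CPM at 100 nM and 27527, 26269.8 and 25827 at 250 nM and was 2.13-fold lower (adjusted p = 0.0125). Mitochondrial ribosomal RNA took 6.20 to 6.92% of the counts at 100 nM and 2.80 to 3.26% at 250 nM, while mitochondrial messenger RNA took 2.58 to 4.06% and 4.24 to 4.88% of protein-coding counts. Neither range overlapped between the library sets, and the part of library preparation in this was not tested.

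Of 59 nuclear genes of oxidative phosphorylation 5 rose and 1 fell in the UMI-named libraries (8.47% and 1.69%, against 4.04% and 4.48%), with a median of 0.18. In this list 0 were called without replicate 2 or 3 at 250 nM, where 0.688% and 0.737% of all genes were called. SDHA, of complex II, stood at 39.4, 38.4 and 36.1 CPM at 100 nM and 86.1, 80.7 and 67.9 at 250 nM and was 2.06-fold higher (adjusted p = 0.0122). COX5A, of complex IV, stood at 185, 201 and 192 CPM at 100 nM and 306, 378 and 370.3 at 250 nM and was 1.83-fold higher (adjusted p = 0.0123). NDUFA6, ATP5ME and COX4I1 rose as well. NDUFB3, of complex I, stood at 95.3, 33.9 and 19.6 CPM at 100 nM and 14.1, 10.3 and 10.6 at 250 nM and was 4.25-fold lower (adjusted p = 0.0245), with the highest value in replicate 1 at 100 nM.

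Among 78 cytosolic ribosomal protein genes 7 rose and 0 fell in the UMI-named libraries (8.97%, against 4.04%), with a median of 0.17, and 2 rose without replicate 2 or 3 at 250 nM. RPS4X (ENSG00000198034, chromosome X, 72255679 to 72277300) stood at 195, 252 and 226 CPM at 100 nM and 433, 623 and 575 at 250 nM and was 2.42-fold higher (adjusted p = 0.00429), and RPL35 stood at 203, 225 and 200.3 CPM at 100 nM and 406, 486 and 499 at 250 nM and was 2.21-fold higher (adjusted p = 0.00509). Both were called in all 29 other settings. RPL30, by contrast, stood at 1102, 645 and 364 CPM at 100 nM and 306, 365 and 348 at 250 nM (adjusted p = 0.079), and the log2 changes of the list ran from -1.05 (RPL30) to 1.28 (RPS4X). Ribosomal protein genes have many processed pseudogenes that can take reads. MEG3, a long noncoding RNA, stood at 186, 123 and 203 CPM at 100 nM and 396, 484 and 528 at 250 nM and was 2.75-fold higher (adjusted p = 0.00806). It was the 1 call among 14 senescence-linked long noncoding RNAs (7.14%, near the 8.52% of all tested genes). ACTG1 and MT-CO3, among the 5 protein-coding genes with the highest CPM on plastic, were not called (adjusted p = 0.933 and 0.182).

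The dose step on gel used other libraries but the same split of library preparation and the same fit. The filter and the estimate of spread were shared, so the calls on plastic and on gel were not independent. The gel step gave 1703 calls, 852 higher (6.91%) and 851 lower (6.9%), 13.8% of tested genes. Of the 1050 genes called on plastic, 97.0% had the same sign on gel, where 72.7% of all tested genes did. Called in both in the same direction were 586 genes, 55.8% of the plastic calls and 34.4% of the gel calls, and 0 were called in opposite directions. Across all 12329 genes, which are not independent replicates, the 2 changes correlated with r = 0.618. On gel 30 members of the mitosis list were called lower and 0 higher, at a median of -2.02.

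A test of the difference between the 2 dose changes, each between UMI-named and other libraries, called 0 genes (edgeR quasi-likelihood), with 779 at an unadjusted p under 0.05. DESeq2 and limma-voom also called 0, and the fit with no filter called 129. The median standard error of this difference was 0.49 on the log2 scale against 0.35 for the plastic change. Among the genes named here, those called on plastic with an unadjusted p under 0.05 for the difference included, chosen after their values were seen, CCL2 (-2.23 and -0.33 on the log2 scale), MMP1 (1.17 and -0.10), STC1 (1.009 and -0.16), ZYX (-1.75 and -0.12) and SH3TC2 (1.76 and -0.01), and in none did the difference pass the adjusted test (adjusted p = 0.75).

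**Figure D4:**
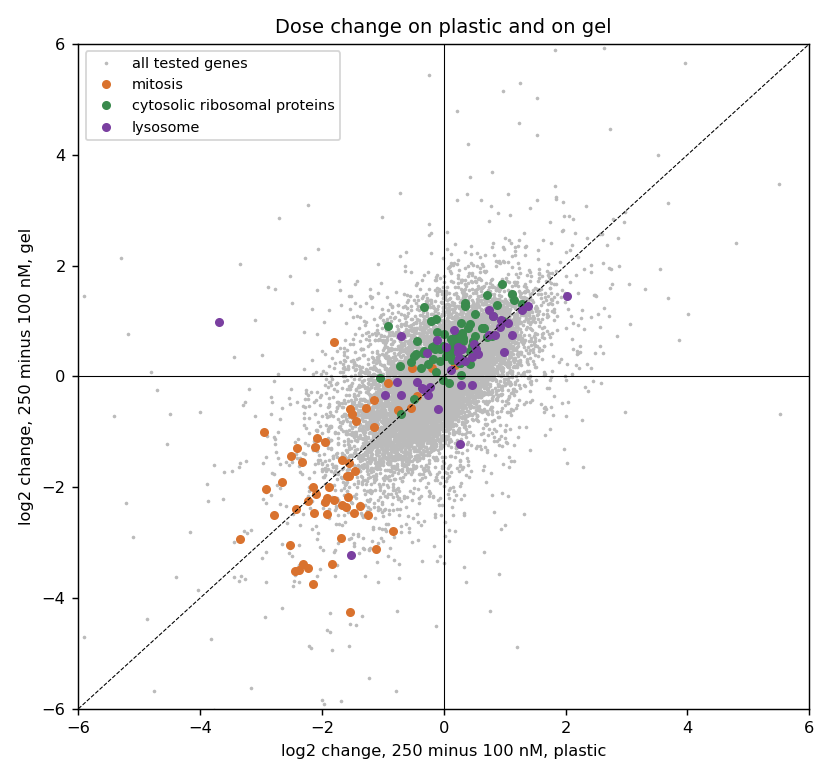
Log2 change from 100 to 250 nM on plastic (horizontal) and on gel (vertical) for all tested genes (grey) and 3 lists; the dashed line marks equal change, and 63 genes beyond 6 on either axis are not drawn. The mitosis genes lie in the lower left with medians of -1.81 and -2.02, and ribosomal protein genes lie mostly above the dashed line.

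The dose change, and with it the change between library sets, varied with the base composition of the transcripts. In 5 equal bins of rising transcript GC content the median log2 change on plastic was -0.27, -0.06, 0.09, 0.12 and -0.00. In the bin of lowest GC content, 27.4 to 41.6%, 165 genes were called lower and 32 higher, and in the fourth bin 79 were lower and 179 higher. On gel the medians rose from -0.43 to 0.39 over the same bins. After the trend was removed within each library the plastic medians lay between 0.04 and 0.09, 1188 genes (9.64%) were called, and 691 of them (58.2%) were higher in place of 47.4%. Of the 100 called genes chosen by the naming rule 97 were still called. By mean CPM, the lowest bin held 23 genes called higher and 38 lower, and the highest 231 higher and 129 lower. The part of base composition in single genes beyond these fits was not tested.

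**Figure D5:**
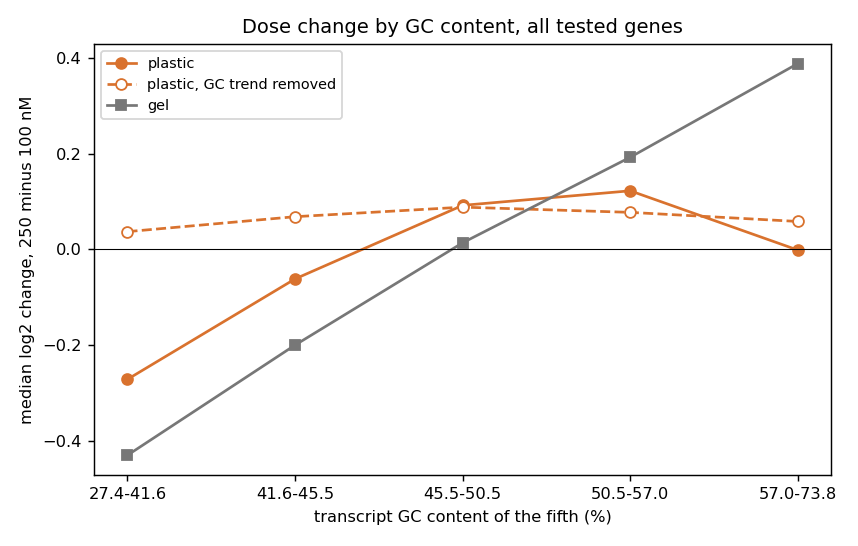
Median log2 change from 100 to 250 nM over all tested genes in 5 bins of transcript GC content, for plastic, for plastic with the GC content trend removed, and for gel. The plastic median runs from -0.27 in the lowest bin to 0.12 in the fourth and lies between 0.04 and 0.09 after removal.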

How the data were processed

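The 12 libraries and their 4 groups came from the sample titles. Per the submitters' processing notes, reads were handled with Trimmomatic, STAR, RSEM and DESeq2 1.36.0 on GRCh38. The authors deposited, per the file headers, RSEM expected count estimates for each gene, which were rounded here. The TPM values deposited beside them were scaled by the authors for transcript length and total, per the file headers. FPKM values were deposited too and were not tested. The sources used here do not give the annotation release, the strand setting or whether reads were collapsed by molecular identifiers. Nothing says that replicates were separate cultures, so p-values measure the spread between these samples, which may be technical.

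Counts were analysed in R 4.3.3 with edgeR 4.0.16: filterByExpr over 4 groups (12329 genes), TMM factors, and a quasi-likelihood fit with 1 mean per group over 12 libraries (8 residual degrees of freedom, common biological coefficient of variation 0.299). P-values were adjusted by Benjamini and Hochberg over all tested genes and called under 0.05. Folds are edgeR's fitted values. Names, coordinates and GC content came from the supplied name table and GENCODE 29, and promoters from RefSeq. The fit was tested on simulated data. Alternatives used DESeq2 1.42.0, limma 3.58.1 (limma-trend on log2 of TPM plus 1), other size factors and filters, trends removed, equal depth and left-out libraries.

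The comparison, the 33 gene lists and the naming rule were chosen with earlier results of these data known. Named by rule were 33 core genes, the 12 protein-coding genes that rose most and the 12 that fell most among those called (CPM averaging 5 or more, no overlap), for each list up to 4 called genes averaging 1 CPM or more, and the 5 most abundant protein-coding genes. Other members were named to complete a count or after their values were seen. Some named genes are not reported here.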

Additional observations from a re-analysis of the deposited data

How the results depend on the processing

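Over 29 other settings the number of genes called on plastic (1050) stayed within 1.5 times under other size factors, DESeq2 (1561, 734 higher), limma-voom (853, 505 higher), thinning to equal depth (911), no filter (1451, 465 higher), the GC content trend removed (1188, 691 higher), the length trend removed (1124, 670 higher) and limma-trend on TPM (701, 272 higher). The share of calls that were higher, 47.4%, became 59.2% with limma-voom, 58.2% and 59.6% with the GC and length trends removed, 38.8% with limma-trend and 32.0% with no filter. With 6 libraries alone, plastic gave 1655 and gel 525. Leaving out 1 library gave 95 to 2202 on plastic, lowest without plastic 250 nM replicate 2 and highest without gel 250 nM replicate 1. An alternative chosen after seeing the data left out that gel library and plastic 250 nM replicate 1 together, and gave 2180 on plastic and 2 for the difference between substrates. With no filter that difference gave 129. On gel, leaving out 1 library gave 676 to 1843 against 1703.

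The numbers in the titles did not pair the plastic libraries: same-numbered deviations correlated at -0.13, 0.12 and -0.20, and not every library correlated best with its own number. With the replicate block plastic gave 1074 calls, and 98 of the 100 called genes chosen by the naming rule were called. Of those 100, 13 were called in every setting that tested them and 1, HYOU1, changed sign (-0.21, limma-trend on TPM). Of the others, CCN2 ran from -0.58 to 0.27 with 1 library left out, positive without plastic 100 nM replicate 1. ACTG1 was at -0.046 with limma-trend and -0.021 with no filter, and ran from -0.067 to 0.14 with 1 library left out, negative without plastic 100 nM replicate 3 or plastic 250 nM replicate 2. The causes were not tested. Counts of IL6, IL1A and ABCB1 were too low for the filter.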

Other observations

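Median changes differed between classes of transcript, with no test of that difference. On plastic 6 of 245 tested lincRNAs rose and 3 fell (2.45% and 1.22%), with a median log2 change of 0.21. Among 353 antisense genes 10 rose and 21 fell (2.83% and 5.95%), with a median of 0.08. The shares over all tested genes were 4.04% and 4.48%, and the median of 10931 protein-coding genes was -0.05. On gel the lincRNA and antisense medians were 0.06 and 0.01. Within the mitochondrial genome, the 13 messenger RNAs had log2 changes from -0.79 for MT-ND4L to 1.57 for MT-ATP6 on plastic, and their changes on plastic and gel correlated with r = 0.940 over these 13 genes, most of which share a polycistronic transcript, and all of which share the split of library preparation. Dose and library preparation cannot be told apart in any of these values.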
